A study of Homo sapiens with 12 samples.

Results

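Transcripts of 10 genes of the small heat shock protein and BAG families were followed across 4 groups of human multiple myeloma cells. The genes were HSPB1, HSPB8, HSPB11 and CRYAB for the small heat shock proteins and BAG1 to BAG6 for the BAG proteins. They were taken by their symbols from 25680 symbols in the deposited tables, and a gene's value is the sum over its listed transcripts. MM.1S cells exposed for 6 h to 6 µM IT848, which the labels call an NF-kB inhibitor, were compared with MM.1S cells given the solvent DMSO for the same time, and U266 cells with IT848 were compared with U266 cells with DMSO. Each group held 3 RNA-seq libraries, 12 in all, from cells grown in RPMI medium with 20% fetal bovine serum. MM.1S and U266 are established plasma cell tumour lines, so each stands for 1 tumour and not for the disease. Whether the 3 libraries per group are separate cultures is not in the labels, and the tests measure the spread between them, which may be technical.

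Small heat shock proteins are chaperones that work without ATP: they assemble into oligomers and hold unfolding proteins in a soluble state until other chaperones can act on them. BAG proteins are named for a domain that, in BAG1 to BAG5, binds the ATPase domain of HSP70 and triggers the release of ADP. Their other domains send HSP70 clients to refolding, the proteasome or autophagy. BAG3 joins the families, since it binds HSPB8 and HSPB1 directly and delivers their clients with HSP70 to autophagy. HSPB1 and BAG3 are known targets of the heat shock factor HSF1, and plasma cells, which secrete large amounts of immunoglobulin, carry a high load of unfolded protein.

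The promoters of the members that the results turn on are shown because HSPB1, HSPB8 and BAG3 changed with the compound. The promoter of BAG2, which also holds a heat shock pair but whose transcript did not pass the test, is shown for contrast. Each run is the 250 bases before the start of the gene, 5′ to 3′ on the strand of the gene, from RefSeq on GRCh38.p14. Capitals mark a match to GAANNTTC, the inverted pair of heat shock units, or, in BAG3, to TGANTCA, the AP-1 site.
HSPB1 (chr7:76302423-76302672, plus strand): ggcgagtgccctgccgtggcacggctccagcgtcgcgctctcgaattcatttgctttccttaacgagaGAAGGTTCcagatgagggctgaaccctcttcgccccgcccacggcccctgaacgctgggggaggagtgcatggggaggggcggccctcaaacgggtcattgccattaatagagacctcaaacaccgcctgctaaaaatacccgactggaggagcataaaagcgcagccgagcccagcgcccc
HSPB8 (chr12:119178681-119178930, plus strand): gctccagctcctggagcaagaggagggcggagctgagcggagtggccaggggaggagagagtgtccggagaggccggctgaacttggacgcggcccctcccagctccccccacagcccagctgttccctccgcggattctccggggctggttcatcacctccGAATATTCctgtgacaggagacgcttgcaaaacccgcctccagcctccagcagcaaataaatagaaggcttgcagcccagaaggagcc
BAG3 (chr10:119651130-119651379, plus strand): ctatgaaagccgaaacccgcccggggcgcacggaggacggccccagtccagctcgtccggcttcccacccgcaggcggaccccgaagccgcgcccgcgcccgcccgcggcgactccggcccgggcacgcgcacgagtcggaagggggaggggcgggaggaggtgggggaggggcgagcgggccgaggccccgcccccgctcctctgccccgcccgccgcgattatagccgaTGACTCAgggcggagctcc
BAG2 (chr6:57172076-57172325, plus strand): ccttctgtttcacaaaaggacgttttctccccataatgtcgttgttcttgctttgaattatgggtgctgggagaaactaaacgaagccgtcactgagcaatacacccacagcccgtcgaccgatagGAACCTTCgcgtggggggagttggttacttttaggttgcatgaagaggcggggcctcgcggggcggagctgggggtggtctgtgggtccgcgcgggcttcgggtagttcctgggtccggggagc

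A window was found for 8 of the 10 members, with HSPB11 listed there as IFT25, and CRYAB and BAG4 had none. Each window ran from 250 bases before to 50 bases after a start, and both strands were searched. Positions are counted from the start, with the first transcribed base as 1. HSPB1 held GAAGGTTC at -182 to -175, and HSPB8 held GAATATTC at -88 to -81 and GAAGTTTC at 5 to 12. BAG2 held GAACCTTC at -124 to -117, and BAG3 held TGACTCA at -19 to -13. The antioxidant response core TGACNNNGC (GCNNNGTCA on the other strand) was matched 2 times, both after the HSPB1 start, at 26 to 34 and 42 to 50. Of 35116 promoter windows, 6.77% held GAANNTTC, 7.74% its everted form TTCNNGAA, 13.3% the antioxidant core and 7.71% the AP-1 site. A triplet of heat shock units, GAANNTTCNNGAA, was in 0.49% of windows and in none of the members' windows. HSPB11, BAG1, BAG5 and BAG6 matched none of these letters. The inverted pair overlaps the triplet, and a match describes letters in a window and no bound factor.

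Transcript counts summed to 50627690 to 72039748 per library, over 18259 to 20966 genes with at least 1 count. All 9 plasma cell markers stood at 1 CPM (counts scaled to a common library total) or more in every group, and the summed levels of T and NK cell markers (4 genes, 0.771 to 1.42 CPM over all libraries) and of myeloid markers (4 genes, 0.459 to 4.76 CPM) were low. A pair of libraries held more reads of genes of the other line than the rest. IT848 replicate 1 of U266 showed all 19 MM.1S genes at 0.943% of their MM.1S level. DMSO replicate 2 of MM.1S showed 45 of 46 U266 genes at 0.4% of their U266 level. These genes were chosen from these data as high in 1 line and nearly absent from the U266 DMSO or MM.1S IT848 libraries. The low values of those libraries follow from that choice. The origin of the reads was not tested, and reads or traces of the other line below name this pattern. Levels below are CPM after TMM scaling. Changes are log2 fold changes ± SE from edgeR's quasi-likelihood test on all 12 libraries, and changes with an adjusted p under 0.05, over 16782 genes, are said to pass. All 10 members passed the filter on low counts, but HSPB8 and BAG6 passed through MM.1S, and CRYAB and BAG6 through transcripts that repeat reads.

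**Figure D1:**
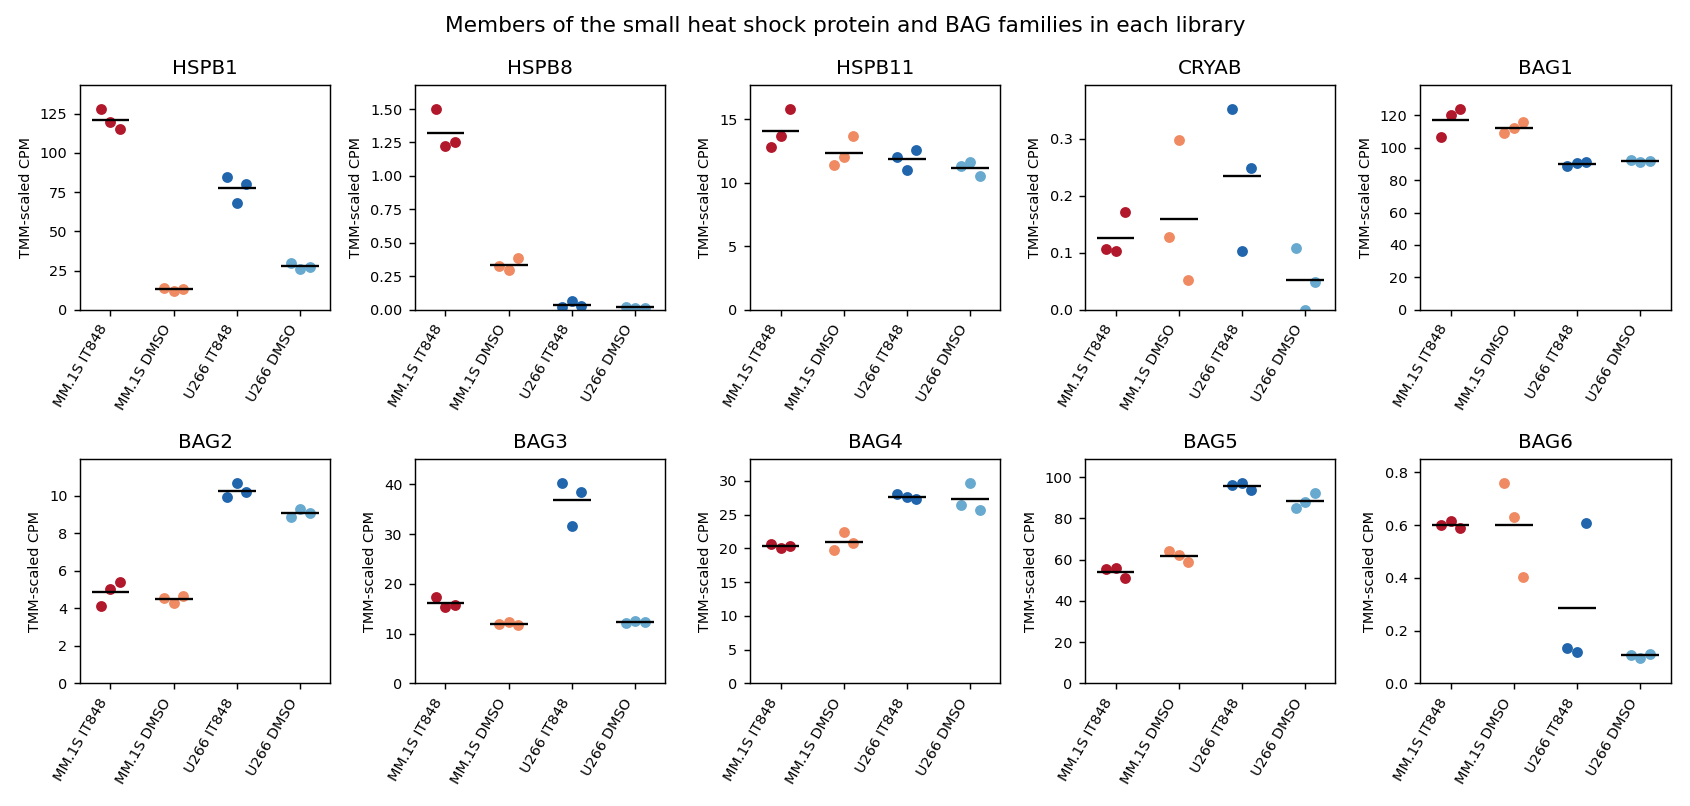
TMM-scaled CPM of each member (vertical axes, linear from 0) in the 3 libraries of each group. Points are libraries and bars are group means: HSPB1 runs from 11.7 to 13.6 CPM in MM.1S DMSO and from 115 to 128 CPM in MM.1S IT848, whereas BAG3 is highest in U266 IT848, at 31.7 to 40.3 CPM.

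HSPB1 and BAG3 rose with IT848 in both lines, HSPB1 more in MM.1S and BAG3 more in U266. HSPB8 rose in MM.1S, at a low level, and BAG5 fell slightly in MM.1S. In MM.1S, 3 members rose and 1 fell, beside 18.7% of all tested genes that rose and 19.6% that fell. In U266, 2 members rose and none fell, beside 4.03% of all tested genes that rose and 4.98% that fell. With 10 members, the MM.1S counts are close to the background. The U266 count of rising members is above it, but the members were chosen with earlier results of these data known. No conclusion is drawn from these counts. The median log2 change of the members was 0.08 in MM.1S and 0.61 in U266, against -0.01 and 0.01 for all tested genes, but the U266 median includes the uncertain values of CRYAB, HSPB8 and BAG6 given below.

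HSPB1 encodes HSP27, the most abundant small heat shock protein of many tumour cells. Its level in MM.1S was 128, 120 and 115 CPM with IT848 and 13.6, 11.7 and 13.5 CPM with DMSO. Every treated MM.1S library was far above every DMSO library, and the change was 3.22 ± 0.09, or 9.32-fold (adjusted p = 6.98e-12). In U266 the level was 84.4, 68.0 and 79.9 CPM with IT848 and 29.8, 25.7 and 27.4 CPM with DMSO. These groups did not overlap either, and the change was 1.49 ± 0.08, or 2.80-fold (adjusted p = 6.42e-08). The response was larger in MM.1S than in U266 by 1.73 ± 0.12 on the log2 scale (adjusted p = 4.87e-07), with 1.66 to 1.81 when 1 library was left out in turn. In bulk RNA, a change in the number of cells that express a gene cannot be told apart from a change in RNA per cell.

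The 4 HSPB1 groups were ordered without overlap as MM.1S with IT848, U266 with IT848, U266 with DMSO and MM.1S with DMSO. The line with the lower DMSO level therefore had the higher treated level: under DMSO, HSPB1 in MM.1S differed from U266 by -1.09 ± 0.09 (adjusted p = 2.61e-08). The DMSO libraries enter both the response and this baseline difference, so these values are not independent. Its most counted transcript is short, at 897 bases against a median of 2834, and in MM.1S the 1650 tested genes under 1000 bases had a median change of 0.08. With the trend over length removed, the HSPB1 change was 3.05 in MM.1S and 1.45 in U266, and both calls held.

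HSPB8 encodes the small heat shock protein that BAG3 holds in its autophagy complex. In MM.1S it had 85, 71 and 66 counts with IT848 and 23, 15 and 22 counts with DMSO, or 1.32 ± 0.156 and 0.336 ± 0.0459 CPM (SD, n = 3 each). The groups did not overlap, although the gene was low in both, and the change was 1.97 ± 0.26, or 3.92-fold (adjusted p = 3.94e-05). In U266 it had 1, 4 and 2 counts with IT848 and 1 count in each DMSO library. These sums of 7 and 3 counts give a ratio of 2.19 with a 95% counting interval of 0.501 to 13.1, so a change like that of MM.1S was not detectable at this depth. The difference between the responses, which rests on those U266 counts, was 0.92 ± 0.98 (adjusted p = 0.617). Under DMSO the line difference rested on 60 counts in MM.1S and 3 in U266, a ratio of 19.7 with an interval of 6.41 to 98.0.

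CRYAB encodes alpha-B crystallin, a small heat shock protein of lens and muscle, and was close to undetected. Its 3 transcripts repeat the same reads, so that each group's sum is 3 times the count of 1 transcript. The summed counts were 6, 6 and 9 in MM.1S with IT848 and 9, 15 and 3 in MM.1S with DMSO. In U266 they were 21, 6 and 18 with IT848 and 6, 0 and 3 with DMSO. Per transcript, U266 had 15 counts with IT848 and 3 with DMSO, a ratio of 4.70 with a counting interval of 1.33 to 25.3, but the libraries overlapped and the test did not pass (adjusted p = 0.0994). In MM.1S the change was -0.29 ± 0.70 (adjusted p = 0.786). Counted per transcript, CRYAB and BAG6 did not reach the filter.

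HSPB11 carries a heat shock protein symbol but is better known as IFT25, a subunit of the intraflagellar transport complex that builds cilia. It stood at 12.8, 13.7 and 15.8 CPM in MM.1S with IT848 and 11.4, 12 and 13.7 CPM with DMSO. In U266 it stood at 12, 11 and 12.6 CPM with IT848 and 11.3, 11.6 and 10.5 CPM with DMSO. All neighbouring groups overlapped. The change was 0.19 ± 0.09 in MM.1S (adjusted p = 0.117) and 0.09 ± 0.09 in U266 (adjusted p = 0.646), with 95% intervals of -0.01 to 0.39 and -0.10 to 0.29. The MM.1S value passed the threshold without IT848 replicate 1 (0.27, adjusted p = 0.0367) or DMSO replicate 3 (0.27, adjusted p = 0.0412), and was -0.02 with the length trend removed. Its transcript is 601 bases long.

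Among the BAG genes, BAG3 encodes the stress-induced member that links HSP70 and small heat shock proteins to autophagy. In U266 it stood at 40.3, 31.7 and 38.5 CPM with IT848 and at 12.1, 12.6 and 12.3 CPM with DMSO. The treated libraries were well above the narrow DMSO range, and the change was 1.58 ± 0.08, or 2.99-fold (adjusted p = 1.88e-08). In MM.1S it stood at 17.4, 15.3 and 15.7 CPM with IT848 and at 12, 12.4 and 11.7 CPM with DMSO. These groups also did not overlap, but the change was smaller, at 0.42 ± 0.08, or 1.34-fold (adjusted p = 0.00125). The response in MM.1S was lower than that in U266 by 1.16 on the log2 scale (-1.16 ± 0.12, adjusted p = 1.64e-05). Under DMSO the lines overlapped, with a difference of -0.04 ± 0.09 (adjusted p = 0.704) and a 95% interval of -0.22 to 0.15. BAG3 and HSPB1 thus differed between the lines in opposite directions: in MM.1S minus U266, the response was 1.73 for HSPB1 and -1.16 for BAG3.

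**Figure D2:**
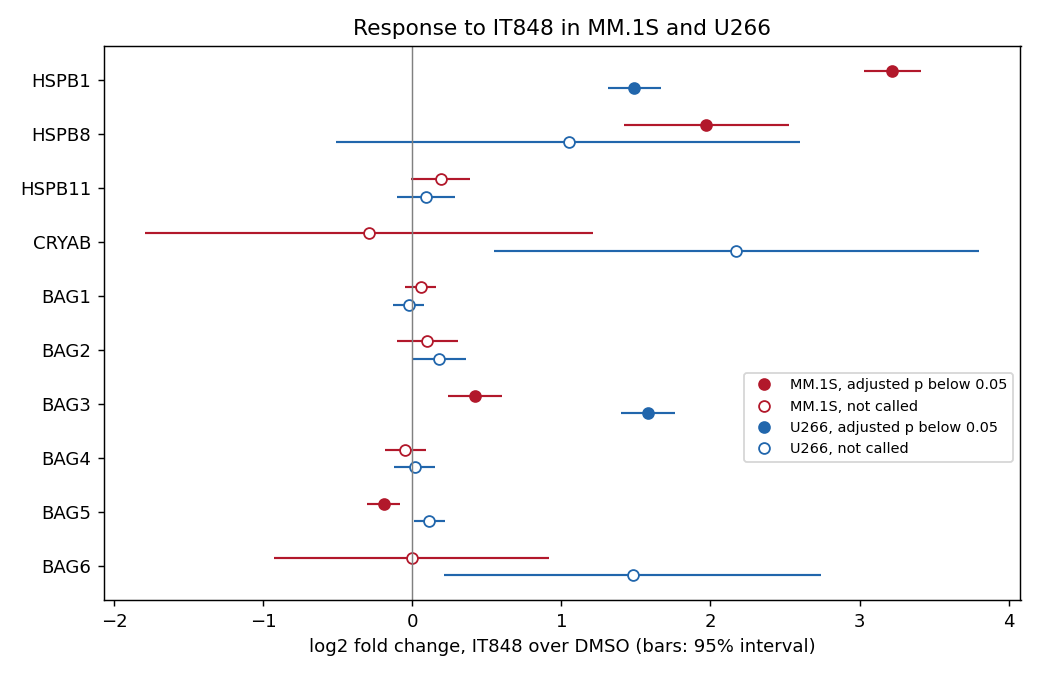
Log2 fold change of each member, IT848 over DMSO (horizontal axis), with 95% intervals, in MM.1S (red) and U266 (blue). Filled points passed the test: HSPB1 at 3.22 and 1.49, BAG3 at 0.42 and 1.58, and, in MM.1S, HSPB8 at 1.97 and BAG5 at -0.19; the intervals of CRYAB, BAG6 and, in U266, HSPB8 are wide.

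BAG5 encodes a protein with several BAG domains that binds HSP70 and the ubiquitin ligase parkin. It stood at 55.5, 55.8 and 50.9 CPM in MM.1S with IT848 and 64.3, 62.4 and 58.7 CPM in MM.1S with DMSO. The groups did not overlap, and BAG5 fell by 0.19 on the log2 scale (-0.19 ± 0.05, adjusted p = 0.00836). Its most counted transcript is long, at 5055 bases, and the change was -0.12 (adjusted p = 0.0385) with the length trend removed. When 1 library was left out in turn, BAG5 still passed, with adjusted p from 0.00575 to 0.0476. In U266 it stood at 96.0, 97.3 and 93.8 CPM with IT848 and 85.1, 87.8 and 92.5 CPM with DMSO, also without overlap, but the change of 0.11 ± 0.05 did not pass (adjusted p = 0.21). The difference of the responses was -0.31 ± 0.07 (adjusted p = 0.00931). Without both libraries with traces of the other line it was -0.29 with an adjusted p of 0.0537, which ends that call.

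BAG1, a cofactor of HSP70 that also binds BCL2, was among the steadiest members. It stood at 107, 120 and 124 CPM in MM.1S with IT848 and 109, 112 and 116 CPM with DMSO, and at 89.0, 90.8 and 91.2 CPM in U266 with IT848 and 92.5, 91.3 and 91.8 CPM with DMSO. The U266 libraries did not overlap, yet the change was only -0.02 ± 0.05 (adjusted p = 0.857, 95% interval -0.13 to 0.08). In MM.1S it was 0.06 ± 0.05 (adjusted p = 0.386), which passed without IT848 replicate 1 (0.14, adjusted p = 0.0205).

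BAG2, known as an inhibitor of the ubiquitin ligase CHIP, stood at 9.94, 10.7 and 10.2 CPM in U266 with IT848 and 8.88, 9.31 and 9.10 CPM with DMSO, and the change of 0.18 ± 0.08 did not pass (adjusted p = 0.256). In MM.1S its means were 4.87 ± 0.647 CPM with IT848 and 4.52 ± 0.186 CPM with DMSO (SD, n = 3 each), a change of 0.10 ± 0.10 (adjusted p = 0.416). BAG4, which binds the cytoplasmic part of the TNF receptor TNFRSF1A, averaged 20.3 ± 0.350 CPM with IT848 and 21.0 ± 1.31 CPM with DMSO in MM.1S, and 27.6 ± 0.344 CPM with IT848 and 27.3 ± 2.16 CPM with DMSO in U266. Its libraries overlapped in both lines, and its 95% intervals ran from -0.18 to 0.09 in MM.1S and from -0.12 to 0.15 in U266.

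BAG6 encodes a chaperone of the cytosol that, with UBL4A and GET4, receives membrane proteins before insertion and marks misplaced ones for degradation. Its counts were 34, 36 and 31 in MM.1S with IT848 and 54, 32 and 23 with DMSO, and 8, 7 and 44 in U266 with IT848 and 6, 6 and 7 with DMSO. IT848 replicate 3 of U266 alone was near the MM.1S values, and the U266 change of 1.48 ± 0.59 (adjusted p = 0.159) ranged from 0.26 to 1.83 when 1 library was left out in turn. These levels are uncertain: the tables list BAG6 in 42 rows, 6 accessions with 7 copies each, and 25 rows held any count. Of 222 symbols with 6 or more copies, 190 (85.6%) averaged under 1 CPM, against 47.3% of the 24898 symbols without copies. How reads that align to several copies were counted is not given in the sources used here, so the BAG6 counts cannot be read as its expression.

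Per kilobase of the most counted transcript, a scale on which genes can be compared, HSPB1 had the highest level of the members in 3 of the 4 groups. It stood at 296 ± 13.2 CPM per kb in MM.1S with IT848 and 31.4 ± 2.78 with DMSO, and at 191 ± 21.5 in U266 with IT848 and 68.3 ± 4.94 with DMSO (SD, n = 3 each). In MM.1S it was at percentile 98.7 of the tested genes with IT848 and at percentile 83.6 with DMSO. HSPB11 followed at 41.1 to 51.6 CPM per kb over the group means and was above HSPB1 in MM.1S with DMSO, at 44.8 ± 4.76. HSPB8 did not exceed 1.45 CPM per kb in any group mean.

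The summed level of BAG1 to BAG5 was 65.0 ± 2.76 CPM per kb in MM.1S with IT848 and 60.5 ± 1.01 with DMSO, and 89.5 ± 3.40 in U266 with IT848 and 66.5 ± 0.960 with DMSO. BAG3 made up 35.4 ± 3.16% of this sum in U266 with IT848 and 16.0 ± 0.0941% with DMSO, and 21.2 ± 2.09% in MM.1S with IT848 and 16.8 ± 0.525% with DMSO. In treated U266 cells its mean share exceeded that of BAG1, which was 28.9 ± 1.26% with IT848 and 39.6 ± 0.795% with DMSO. In MM.1S, BAG1 stayed the largest share, at 51.0 ± 2.30% with IT848 and 52.2 ± 1.17% with DMSO. These shares follow from the levels above and were not tested.

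**Figure D3:**
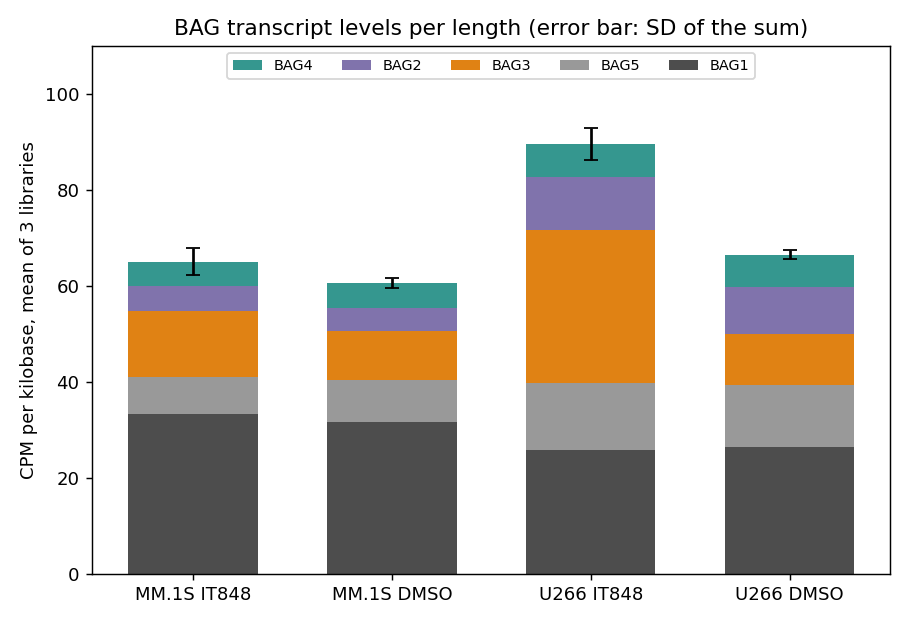
Stacked mean CPM per kilobase of BAG1 to BAG5 (vertical axis, from 0) in the 4 groups, with the SD of the sum over 3 libraries. The BAG3 segment widens to 35.4% of the sum in U266 IT848, against 16.0% in U266 DMSO, while the total in MM.1S is 65.0 with IT848 and 60.5 with DMSO.

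The ratio of HSPB1 to BAG3 transcripts per kilobase shows how the pair diverged. In MM.1S it was 21.5 ± 0.842 with IT848 and 3.09 ± 0.335 with DMSO, and in U266 it was 6.02 ± 0.0999 with IT848 and 6.43 ± 0.591 with DMSO (SD, n = 3 each). The U266 libraries overlapped, at 5.94 to 6.13 with IT848 and 5.87 to 7.04 with DMSO. The ratio of HSPB8 to BAG3 in MM.1S was 0.105 ± 0.00502 with IT848 and 0.0359 ± 0.00599 with DMSO.

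Under DMSO, 3 members were higher and 4 lower in MM.1S than in U266, beside 40.6% of all tested genes that were higher and 42.1% that were lower. Nothing is read from the count of higher members, since 2 of the 3, HSPB8 and BAG6, entered the test through their MM.1S counts. BAG2 differed by -1.01 ± 0.09 (adjusted p = 6.67e-08), BAG5 by -0.52 ± 0.05 (adjusted p = 1.72e-07) and BAG4 by -0.38 ± 0.06 (adjusted p = 5.32e-05), all lower in MM.1S, as was HSPB1. BAG1 was higher in MM.1S by 0.29 ± 0.05 (adjusted p = 6.81e-05). HSPB8 and BAG6 were also called higher, but they passed the filter through MM.1S, so their line differences are a description, and the BAG6 counts carry the doubt given above. HSPB11 did not pass at 0.15 ± 0.09 (adjusted p = 0.141), but gave 0.46 (adjusted p = 2.19e-05) with the length trend removed. CRYAB did not pass at 1.56 ± 0.82 (adjusted p = 0.0892), but passed without U266 DMSO replicate 1 (2.55, adjusted p = 0.0362) or MM.1S DMSO replicate 3 (1.97, adjusted p = 0.0375). Those CRYAB values rest on 2, 0 and 1 counts per transcript in U266 with DMSO and 3, 5 and 1 in MM.1S. The sums tested repeat these reads, so no line difference is read from them.

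For the difference of the responses, 1 member was higher and 2 were lower in MM.1S, beside 8.49% and 8.94% of all tested genes. The remaining 7 members did not pass. Their log2 differences ran from -2.46 ± 1.04 for CRYAB (adjusted p = 0.121) to 0.92 ± 0.98 for HSPB8, and those of HSPB11, BAG1, BAG2 and BAG4 lay between -0.07 and 0.10. These values do not show equal responses: the 95% interval for BAG2, for example, ran from -0.35 to 0.20.

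The genes that work with the members were taken from a list of 38, of which 32 were tested. In MM.1S, 12 rose, 7 fell and 13 did not pass, beside 18.7% and 19.6% of all tested genes that rose and fell. In U266, 8 rose, none fell and 24 did not pass, beside 4.03% and 4.98%. The response was higher in MM.1S for 4 and lower for 7, beside 8.49% and 8.94%. The median log2 change of the tested genes was 0.10 in MM.1S and 0.01 in U266. Under DMSO, 9 were higher and 18 lower in MM.1S than in U266, beside 40.6% and 42.1%, with a median difference of -0.46. The lower genes include HSPB6 (-2.94 ± 0.35) and HSPB7 (-4.05 ± 0.63), which entered the test through their U266 counts. Nothing is therefore read from the count of lower genes or from this median.

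The HSP70 group, the partners that BAG domains bind, included HSPA6, a strictly inducible HSP70. HSPA6 averaged 106 ± 20.7 CPM in U266 with IT848 and 0.188 ± 0.0569 CPM with DMSO, and 8.72 ± 0.765 CPM in MM.1S with IT848 and 3.61 ± 0.378 CPM with DMSO (SD, n = 3 each). It rose in both lines, and the log2 response in MM.1S was lower by 7.84 (-7.84 ± 0.30, adjusted p = 6.29e-09). HSPA6 has a near-identical copy, HSPA7, so reads may be split between them. HSPA8, the constitutive HSP70, changed by 0.40 ± 0.08 in U266 (adjusted p = 0.00606) and -0.10 ± 0.08 in MM.1S (adjusted p = 0.333). HSPH1, which encodes an exchange factor for HSP70 of the HSP110 class, rose in both lines by nearly the same amount, 1.08 ± 0.04 in MM.1S and 1.04 ± 0.04 in U266, with a difference of 0.05 ± 0.06 (adjusted p = 0.617). HSPA1A and HSPA1B, the main inducible HSP70 genes, are listed with 5 copies each and are uncertain like BAG6: HSPA1A was not tested, and HSPA1B averaged 1.58 ± 0.451 CPM in U266 with IT848 and 0.306 ± 0.105 CPM with DMSO, and 2.96 ± 0.323 CPM in MM.1S with IT848 and 2.13 ± 0.0560 CPM with DMSO. HSPA1B passed in U266 (2.38 ± 0.26, adjusted p = 3.62e-05) and not in MM.1S (0.47 ± 0.19, adjusted p = 0.0688), and the difference of the responses passed (-1.91 ± 0.33, adjusted p = 0.00144). HSPA2, a testis-enriched HSP70 gene, fell in MM.1S to 0.241 ± 0.0717 CPM with IT848, against 0.442 ± 0.0183 CPM with DMSO (-0.88 ± 0.28, adjusted p = 0.0243), and gave -0.14 ± 0.22 in U266 (adjusted p = 0.798).

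All 3 HSP40 genes, which load clients onto HSP70, rose in U266: DNAJB1 by 1.10 ± 0.06 (adjusted p = 3.05e-08), DNAJA1 by 0.55 ± 0.05 (adjusted p = 9.31e-06) and DNAJB6 by 0.38 ± 0.05 (adjusted p = 0.000193). In MM.1S only DNAJB6 passed (0.24 ± 0.05, adjusted p = 0.00208), while DNAJB1 gave -0.03 ± 0.06 (adjusted p = 0.714) and DNAJA1 0.13 ± 0.05 (adjusted p = 0.0644). Of all tested genes, 4.03% rose in U266 and 18.7% in MM.1S. The difference between the lines passed for DNAJB1 (-1.13 ± 0.08, adjusted p = 8.86e-07) and DNAJA1 (-0.42 ± 0.07, adjusted p = 0.00168). DNAJB1 and BAG3 therefore both responded more in U266, and HSPB1 more in MM.1S.

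SQSTM1 encodes p62, the autophagy receptor to which the BAG3 complex hands its clients. It averaged 2743 ± 52.7 CPM in MM.1S with IT848 and 740 ± 23.3 CPM with DMSO, and 2571 ± 70.2 CPM in U266 with IT848 and 1434 ± 30.5 CPM with DMSO (SD, n = 3 each). The changes were 1.89 ± 0.04 in MM.1S (adjusted p = 6.1e-14) and 0.84 ± 0.04 in U266 (adjusted p = 2.25e-09), and the response was larger in MM.1S by 1.05 ± 0.05 (adjusted p = 1.23e-08). STUB1, which encodes the ligase CHIP that BAG2 inhibits, did not pass in either line (0.03 ± 0.04 in MM.1S and -0.02 ± 0.04 in U266). Of the other BAG3 partners, YWHAG, a 14-3-3 protein, rose in MM.1S (0.35 ± 0.03, adjusted p = 2.35e-06) and LATS1, a Hippo pathway kinase, fell there (-0.23 ± 0.06, adjusted p = 0.0073).

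**Figure D4:**
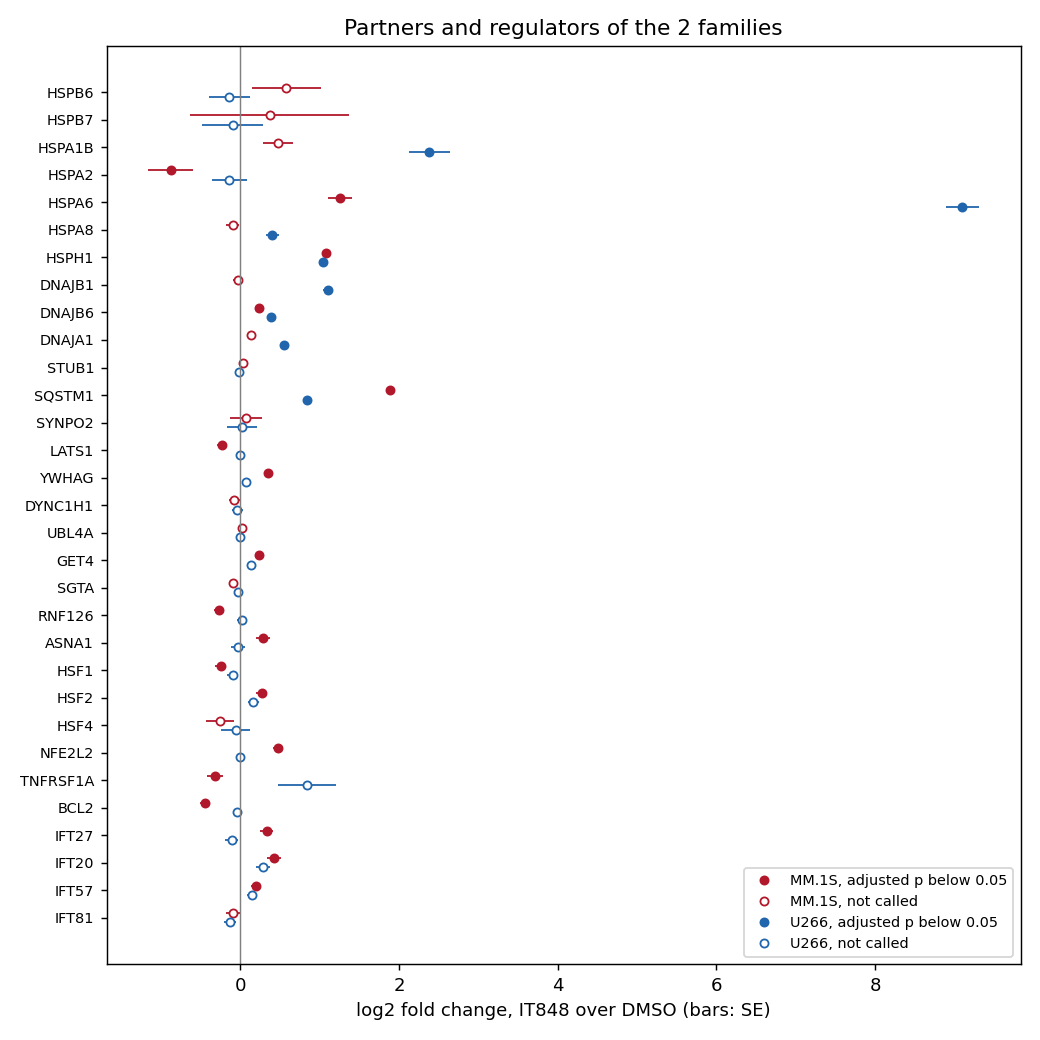
Log2 fold change with SE, IT848 over DMSO (horizontal axis), of tested partner and regulator genes in MM.1S (red) and U266 (blue), filled where the test passed. HSPH1 lies at 1.08 and 1.04 in the lines, whereas SQSTM1 is farther right in MM.1S (1.89) and HSPA6 (9.10) and DNAJB1 (1.10) are farther right in U266.

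Of the 4 regulators, 2 rose and 1 fell in MM.1S, and none passed in U266. Of all tested genes, 18.7% rose and 19.6% fell in MM.1S, against 4.03% and 4.98% in U266. The regulator counts are therefore not read as a response of MM.1S alone. HSF1, the main activator of heat shock genes, fell in MM.1S (-0.25 ± 0.07, adjusted p = 0.0109), and HSF2 rose there (0.27 ± 0.07, adjusted p = 0.00639). NFE2L2, which encodes NRF2, the activator of antioxidant genes, averaged 132 ± 5.90 CPM in MM.1S with IT848 and 95.2 ± 7.31 CPM with DMSO, a rise of 0.47 ± 0.06 (adjusted p = 2.75e-05). In U266 it averaged 95 ± 0.585 CPM with IT848 and 95.1 ± 6.17 CPM with DMSO, and the difference of the responses passed (0.47 ± 0.08, adjusted p = 0.00164). Under DMSO, HSF1 was higher in MM.1S by 1.33 ± 0.07 (adjusted p = 1.23e-10). RNA levels do not show the activity of these factors.

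BCL2, a binding partner of BAG1 and an inhibitor of apoptosis, fell in MM.1S by 0.45 (-0.45 ± 0.06, adjusted p = 2.92e-05), and TNFRSF1A, the partner of BAG4, by 0.32 (-0.32 ± 0.10, adjusted p = 0.0245). Neither passed in U266. TNFRSF1A was nearly absent there, at 0.457 ± 0.262 CPM with IT848 and 0.253 ± 0.0859 CPM with DMSO (SD, n = 3 each). In MM.1S with DMSO it averaged 41.3 CPM. Its U266 change of 0.84 ± 0.37 (adjusted p = 0.204) therefore does not show the lack of a response. Of the 5 genes of the BAG6 complex, GET4 (0.24 ± 0.05) and ASNA1 (0.28 ± 0.09) rose and RNF126 fell (-0.27 ± 0.06) in MM.1S, and none passed in U266. Of the 4 intraflagellar partners of HSPB11, IFT20 (0.42 ± 0.09), IFT27 (0.33 ± 0.08) and IFT57 (0.19 ± 0.06) rose in MM.1S, and none passed in U266. These counts stand beside 18.7% of all tested genes that rose and 19.6% that fell in MM.1S, and 4.03% and 4.98% in U266. They are not read as a response of MM.1S alone.

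Other small heat shock genes were low. HSPB2, HSPB3, HSPB9 and CRYAA did not reach the filter, with group means of at most 0.128 CPM. HSPB6 averaged 0.594 ± 0.110 CPM in U266 with IT848 and 0.656 ± 0.0711 CPM with DMSO, and neither HSPB6 nor HSPB7 passed for IT848 in either line. Small heat shock proteins are abundant in muscle and stroma. The summed level of 8 markers of these tissues was 22.7 to 29.8 CPM in MM.1S with IT848 and 15.8 to 20.5 CPM with DMSO, and 39.6 to 48.8 CPM in U266 with IT848 and 31.9 to 37.6 CPM with DMSO. COL1A1 was the highest of them in every group, and 2 of the 8, DES and MYH7, were under 0.1 CPM throughout. The part of such cells or genes in the HSPB1, HSPB8 and BAG3 values was not tested.

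Genes whose pattern was most like that of HSPB1 were AIFM2 (Pearson r = 0.987), GABARAPL1 (r = 0.978) and IRF7 (r = 0.978), over the log2 CPM of 12 libraries. AIFM2, which encodes a membrane-bound suppressor of ferroptosis, averaged 80.4 ± 2.32 CPM in MM.1S with IT848 and 29.5 ± 1.91 CPM with DMSO, and 59.1 ± 1.90 CPM in U266 with IT848 and 41.3 ± 0.938 CPM with DMSO. For BAG3 they were NSMAF (r = 0.979), HSPA7 (r = 0.977) and PPIF (r = 0.966). NSMAF, a protein that couples the TNF receptor to a sphingomyelinase, averaged 88.8 ± 4.04 CPM in U266 with IT848 and 54.4 ± 2.71 CPM with DMSO, and 63.8 ± 1.69 CPM in MM.1S with IT848 and 51.8 ± 0.918 CPM with DMSO. HSPA7 had 94 to 164 counts per library in U266 with IT848 and no count in U266 with DMSO. The 12 libraries form 4 groups, which shape these coefficients, and the genes were chosen for their likeness, so no test applies.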

How the data were processed

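The authors' deposited tables, 1 per library, give a count, an FPKM and a TPM for each of 51780 transcripts. The tools named in the submitters' processing notes are Trimmomatic 0.36, bcl2fastq, featureCounts, Subread 1.5.2 and STAR 2.5.2b, with the build hg19. Not given in the sources used here are the strand setting, the annotation release and how reads with several alignments were treated. The deposited counts repeat a read for each transcript it overlaps, so a gene's sum grows with its transcripts. The deposited FPKM served to recover transcript length, and the deposited TPM was not used.

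Counts were summed per symbol and tested with edgeR 4.0.16 (R 4.3.3): TMM scaling, a filter at a minimum count of 10, a mean per group over 12 libraries and Benjamini-Hochberg adjustment over 16782 genes. The fit was also run on simulated counts that had 1 spread for all genes and no difference between the lines under DMSO. The real data differ in both, so this run does not measure errors in the calls above. With 1 transcript per gene the library totals were 22887470 to 32913398, and 3 counts correspond to 0.0478 to 0.0538 CPM. Counting intervals are 95% exact intervals and cover counting error only. Likeness used log2 CPM with a prior count of 2. The alternatives included DESeq2 1.42.0. All members and genes of a list of partners were named (1 partner is counted but not reported here), plus the 3 genes most like HSPB1 and BAG3. Members and lists were chosen with earlier results of these data known.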

Additional observations from a re-analysis of the deposited data

Results flagged for a closer look

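The response to IT848 differed between the lines for 3 members by the test of the difference itself, MM.1S minus U266, in edgeR's quasi-likelihood test. Of all tested genes, 8.49% passed as higher in MM.1S and 8.94% as lower, and no conclusion is drawn from the count of members. For HSPB1 the log2 difference was 1.73 (adjusted p = 4.87e-07), from responses of 3.22 in MM.1S and 1.49 in U266, both upward. For BAG3 it was -1.16 (adjusted p = 1.64e-05), from 0.42 in MM.1S and 1.58 in U266, also both upward. For BAG5 it was -0.31 (adjusted p = 0.00931), from -0.19 in MM.1S, which passed the test, and 0.11 in U266, which did not, and this call ended without both libraries with traces of the other line (adjusted p = 0.0537).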

How the results depend on the processing

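Of 773 values of single members under the alternatives (DESeq2, upper-quartile scaling, no filter, the most counted transcript, only the compared groups, the replicate block, without the 2 libraries with reads of the other line, the length trend removed and 12 fits without 1 library each), 756 kept their side of the threshold without a turn of sign (values of 0.00 were counted as no turn), 7 passed newly (HSPB11, BAG1 and CRYAB) and 1 no longer passed (BAG5, difference of the responses). The sign turned in 9 values, none of which passed before or after. Some fits without 1 library could hardly change a value, since a library outside a comparison enters only through the filter, the scaling and the shared spread. HSPB1 in U266, for example, stayed at 1.49 without any 1 of the MM.1S libraries. The 756 kept values therefore overstate how hard the results were tried. Members that a fit did not test are left out, for example CRYAB and BAG6 with the most counted transcript. CRYAB had no adjusted p with DESeq2 in either line and was counted as kept. With the length trend removed, HSPB11 gave -0.02 in MM.1S and -0.06 for the difference, BAG4 0.01 in MM.1S and BAG3 0.08 between the lines. BAG4 in MM.1S also gave 0.01 without the 2 libraries. Without 1 library each, CRYAB ran from -0.69 to 0.43 in MM.1S (turning without DMSO replicate 2), BAG2 from -0.14 to 0.05 for the difference (without MM.1S IT848 replicate 1) and BAG4 from -0.02 to 0.09 in U266 (without DMSO replicates 1 and 3). The cause was not tested. The count of members called did not move by over 1.5 times: without 1 library each it was 4 to 6 in MM.1S, 2 in U266, 3 for the difference and 7 to 8 between the lines, and for partners 16 to 20, 8 to 9, 10 to 14 and 25 to 27. Counts of all genes moved more. Without the pair of libraries, 924 genes instead of 1512 were called in U266 and 1712 instead of 2924 for the difference. Without 1 library each these counts ran from 986 to 1827 and from 2208 to 3870. The lowest in U266 came without DMSO replicate 3, and the highest for the difference without MM.1S IT848 replicate 1. The chi-square per gene between replicates was highest for MM.1S IT848 replicates 1 and 3 (25.7), and 2 to 10.6 for all others. Deviations of same-numbered IT848 and DMSO libraries correlated at -0.0563 to 0.117 for MM.1S and at -0.00139 to 0.0599 for U266. Those of differently numbered libraries correlated at -0.148 to 0.0407 for MM.1S and at -0.038 to 0.0341 for U266. Whether equal numbers mark paired libraries was not tested. With the replicate block, 4388 genes were called for the difference, and HSPB11 passed in MM.1S (0.19, adjusted p = 0.0429). Depth limits HSPB8 in U266 and CRYAB in both lines, and the listing in copies limits BAG6.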
